A study of Rattus norvegicus with 6 samples.

Results

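Histone genes were examined in the total RNA of rat mammary tumors, from libraries that were depleted of ribosomal RNA and so kept transcripts with and without a poly(A) tail. The genes were chosen by symbol, as the rows whose name begins with a current or older histone gene name (H1f, H2ac, H2bc, H3c, H4c, H2a variants, H3f3 or Hist with its cluster number). Of 30562 rows, 49 matched. H4f3, a linker histone gene that RefSeq also lists under the older name Hist1h1d, lies outside this name pattern and is in none of the sums or counts. The 49 were 34 replication-dependent genes, 8 variant genes, 3 linker histone genes of the testis and oocyte, and 4 pseudogenes.

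All 6 tumors came from F344 rats, an inbred strain, that had carried a pellet of 50 mg medroxyprogesterone acetate (MPA), a synthetic progestin released over 90 days, and had been given 1 oral dose of 65 mg/kg 7,12-dimethylbenz[a]anthracene (DMBA), a carcinogen. The older group held 3 tumors (102, 107 and 116) from rats dosed at 21 to 23 months of age, and the younger group 3 tumors (157, 158 and 167) from rats dosed at 4 months. The comparison addressed which transcripts of the tumors differed with the age group of the host. According to the paper, the younger rats were virgin animals bought from Envigo. The older rats came from colonies of the National Institute on Aging, so age and source of the animals cannot be told apart. Every group had received both agents, no untreated mammary tissue was compared, and the older tumors had been selected for having enough tissue.

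Replication-dependent histone genes supply the core histones H2A, H2B, H3 and H4 and the linker histone H1 while DNA is copied. They sit in clusters as many nearly identical copies, and their mRNAs mostly end in a stem-loop bound by the protein SLBP in place of a poly(A) tail, so that oligo-dT selection largely loses them. Variant histone genes are mostly single genes with polyadenylated transcripts, expressed outside S phase as well, whose products replace the standard histones at particular sites, and H2ax among them makes transcripts of both kinds.

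The deposited values were read counts per gene, with 3508571 to 6525830 counts in a tumor. Tumor 102 had the lowest total. Levels are given in CPM, a gene's counts relative to the library total after TMM scaling, which corrects totals for composition, and 3 counts corresponded to 0.516 to 0.988 CPM. A log2 fold change is older minus younger, from the edgeR quasi-likelihood fit across 14060 genes. Its standard error (SE) was derived from that test, as the absolute fold change over the square root of the F statistic. Of the epithelial marker list, 5 of 7 genes had a row and none was at 0 in any tumor, with a summed level of 1130 to 1450 CPM in older and 1830 to 2400 CPM in younger tumors. Macrophage markers, 6 of 6 with a row and none at 0, summed to 132 to 269 CPM in older and 60.3 to 114 CPM in younger tumors. Lymphocyte markers, 7 of 8 with a row, summed to 13.5 to 77.6 CPM against 4.76 to 8.08 CPM, with Ms4a1 and Cd79b at 0 in every tumor. Adipocyte markers, 5 of 5 with a row, summed to 19.4 to 169 CPM against 5.94 to 17.5 CPM, highest in tumor 102, and Lep was at 0 in some tumors. The fibroblast, endothelial, skeletal muscle and erythroid lists overlapped between the age groups. The 4 lists with values above did not, so they move with every age difference given for the histone genes, and their part in those differences was not tested. In bulk tissue, fewer cells of a type and less RNA per cell cannot be told apart.

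The promoters of the histone genes differed in short sequence elements, some of them by class and others by gene family. RefSeq promoters of the GRCr8 assembly, from 250 bases before to 50 bases after the annotated start, were found for 24 of 26 replication-dependent symbols, all 8 variant genes and all 3 testis and oocyte linkers. The sequence CCAAT, on either strand, was in 21 of the 24 replication-dependent promoters (87.5%), 6 of 8 variant promoters (75%) and 37.5% of 33469 rat promoters. The letters TATAAA were in 13 of 24 (54.2%), against 14.2% of all promoters and 3 of 8 variants, and the shorter TATAA, which overlaps it, in 22 of 24 (91.7%), against 26.2% of all and the same 3 of 8 variants. The octamer ATTTGCAT was in 7 of 24 (29.2%) against 1.78% of all promoters. These 7 were 4 H2A and 3 H2B genes, and H3f3b was the 1 variant gene with it. Neither of the 2 H4 promoters held CCAAT or the octamer. A match of letters is a description of the sequence and does not show that a factor binds it.

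The linker histone promoters are shown because replication-dependent and variant genes of one family differed at a fixed distance from the start. The stretches run from 70 to 20 bases before the start, 5′ to 3′ on the gene's strand, and capitals mark CCAAT on that strand.
H1f1 at chr17:41794888-41794938, minus strand: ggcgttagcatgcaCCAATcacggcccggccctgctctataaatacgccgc
H1f2 at chr17:41820473-41820523, minus strand: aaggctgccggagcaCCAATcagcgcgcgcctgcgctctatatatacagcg
H1f4 at chr17:41914355-41914405, plus strand: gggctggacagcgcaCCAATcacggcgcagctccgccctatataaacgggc
H1f5 at chr17:47421805-47421855, plus strand: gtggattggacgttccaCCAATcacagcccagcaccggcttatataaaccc
H1f6 at chr17:41855980-41856030, minus strand: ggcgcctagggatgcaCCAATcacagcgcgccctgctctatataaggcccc
H1f0 at chr7:112473210-112473260, plus strand: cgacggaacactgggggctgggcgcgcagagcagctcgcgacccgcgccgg
H1f10 at chr4:121998917-121998967, minus strand: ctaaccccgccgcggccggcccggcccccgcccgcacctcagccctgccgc
CCAAT began between 60 and 50 bases before the start in the 4 replication-dependent linker genes of the name pattern and in H1f6, the testis linker, and was absent from this window in H1f0 and H1f10. On the gene's own strand the window held CCAAT in 6 of 24 replication-dependent promoters (25%), in 0 of 8 variant promoters and in 1.21% of all promoters. The window was chosen after the positions had been seen.

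The H2B promoters are shown because they divide by the octamer. The stretches run from 110 to 17 bases before the start, and capitals mark ATTTGCAT and CCAAT on the gene's strand.
Hist1h2bq at chr17:41869358-41869451, minus strand: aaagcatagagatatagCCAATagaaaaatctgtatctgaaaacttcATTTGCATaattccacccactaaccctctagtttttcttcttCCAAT
H2bc18 at chr2:186527087-186527180, plus strand: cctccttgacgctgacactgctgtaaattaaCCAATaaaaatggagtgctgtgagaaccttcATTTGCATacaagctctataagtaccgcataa
Hist1h2bc at chr17:47392366-47392459, minus strand: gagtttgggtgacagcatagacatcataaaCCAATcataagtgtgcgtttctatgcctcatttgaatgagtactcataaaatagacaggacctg
Hist1h2bo at chr17:47413806-47413899, minus strand: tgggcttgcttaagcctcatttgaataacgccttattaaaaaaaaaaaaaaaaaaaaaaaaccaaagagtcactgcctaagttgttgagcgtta
Hist3h2ba at chr10:44225311-44225404, plus strand: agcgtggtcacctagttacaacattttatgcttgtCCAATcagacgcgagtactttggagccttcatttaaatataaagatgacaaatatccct
Hist1h2bq and H2bc18, the H2B genes with the most counts in these tumors, both carried the octamer. It was in none of the other 3 stretches, and Hist1h2bo held neither element in this range. H2bc1, which is not shown, also carried the octamer in its promoter but had only 4 counts in all. Hist1h2bg, not shown either, lacked it.

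The H3 promoters are shown beside that of H3f3a, which encodes the replacement histone H3.3. The range and the capitals for CCAAT are as for H2B.
H3c13 at chr17:41960026-41960119, minus strand: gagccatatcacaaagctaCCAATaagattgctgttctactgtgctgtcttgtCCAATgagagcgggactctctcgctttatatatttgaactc
Hist1h3b at chr17:47419086-47419179, plus strand: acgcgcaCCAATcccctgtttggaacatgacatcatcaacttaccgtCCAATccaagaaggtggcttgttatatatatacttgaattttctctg
Hist2h3c2 at chr2:186526052-186526145, plus strand: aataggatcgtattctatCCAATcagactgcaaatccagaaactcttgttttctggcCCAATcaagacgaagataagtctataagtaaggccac
H3f3a at chr13:95076712-95076805, minus strand: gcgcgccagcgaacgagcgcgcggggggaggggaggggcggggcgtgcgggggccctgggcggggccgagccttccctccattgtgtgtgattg
Each of the 3 replication-dependent H3 promoters held a pair of CCAAT sequences, the nearer one beginning 53 to 63 bases before the start, whereas H3f3a held none here. H3f3b, the other gene for H3.3, did hold CCAAT on its strand, beginning 93, 163, 186 and 210 bases before the start.

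**Figure D1:**
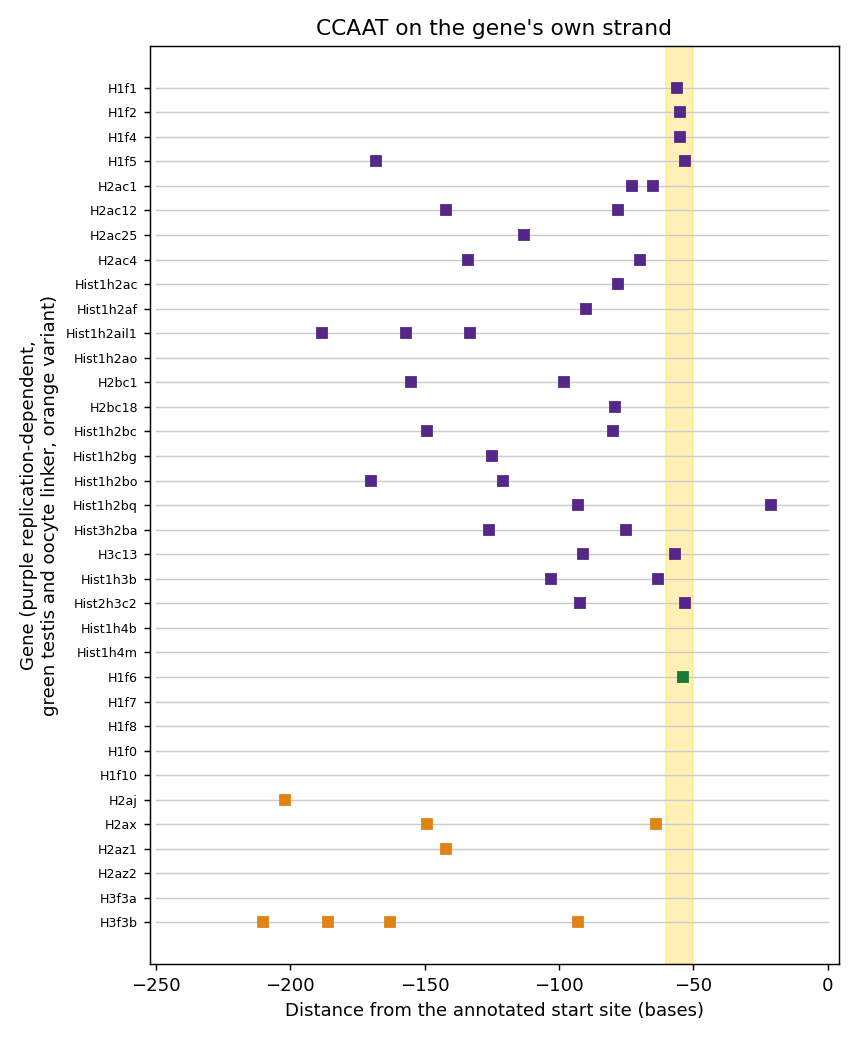
Position of each CCAAT on the gene's own strand (squares) in the 250 bases before the annotated start, for 35 histone genes with a RefSeq promoter, with the distance from the start in bases on the x axis. The shaded band from 60 to 50 bases before the start holds a square for the 4 replication-dependent H1 genes shown, for H3c13 and Hist2h3c2 and for H1f6. It holds none for a variant gene.

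Replication-dependent histone transcripts took a larger share of the counts in the younger tumors on average, with a spread between tumors of one group that exceeded the difference. The 34 genes together made up 0.0668% of the counts in tumor 102, 0.164% in 107 and 0.335% in 116, against 0.316% in 157, 0.166% in 158 and 0.311% in 167. The older tumors thus included both the lowest and the highest share, and 158 sat beside 107. The mean share was 0.189% ± 0.136 (SD, n = 3) in older and 0.264% ± 0.0853 (SD, n = 3) in younger tumors, a difference of -0.0758 percentage points. Exact binomial 95% intervals, which cover counting error only, were narrow beside these gaps, for example 0.0642% to 0.0696% in tumor 102. The difference was -0.0149 points without tumor 102, -0.149 without 116, -0.0497 without 157 and -0.125 without 158.

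Variant histone transcripts held a smaller share that varied less. The 8 genes made up 0.0582% of the counts in 102, 0.072% in 107 and 0.103% in 116, against 0.116% in 157, 0.0732% in 158 and 0.147% in 167. Again 158 overlapped the older tumors, which otherwise were lower. The mean share was 0.0779% ± 0.0232 (SD, n = 3) in older and 0.112% ± 0.0369 (SD, n = 3) in younger tumors, a difference of -0.0339 points between the unrounded means that was -0.0532 without 158 and -0.0165 without 167. The replication-dependent genes gave 1.15 times the summed CPM of the variants in tumor 102 and 2.12 to 3.24 times in the other 5 tumors.

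**Figure D2:**
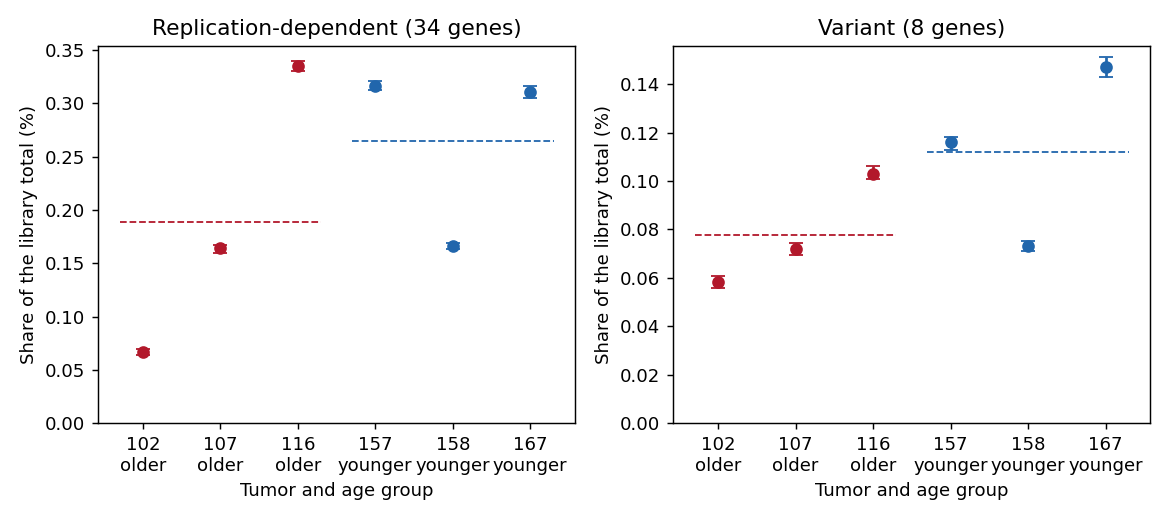
Share of the library total (%) taken by replication-dependent and by variant histone genes in each tumor, red for older and blue for younger, with exact binomial 95% intervals as bars and group means as dashed lines. Replication-dependent genes ranged from 0.0668% in tumor 102 to 0.335% in tumor 116, both older.

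Gene by gene, 31 replication-dependent and 8 variant genes had enough counts to be tested. None of the 39 passed an adjusted p of 0.05 in edgeR's quasi-likelihood test, as was the case for all genes (0%). At an unadjusted p under 0.05 there were 3 histone genes, all with the lower mean in older tumors, where 3.27% of all tested genes were lower and 5.28% higher at this threshold. These were H1f0, Hist2h4 and Hist1h2bq. The DESeq2 Wald test called 1 histone gene, H1f0, and 0.811% of all genes lower in older tumors. In 5 of the 39 genes every older tumor lay under every younger one (5.61% of all genes did), and none showed the opposite (6.51% of all genes did).

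The fold changes of the 39 genes all had a negative sign, against 50.4% of all genes tested. The median was -0.43 for the replication-dependent genes, from -1.62 for Hist3h2ba to -0.18 for Hist1h4b, and -0.555 for the variants, from -1.11 for H1f0 to -0.07 for H2az2, beside -0.003 for all genes. The genes move together across tumors and are not independent, and 1 tumor carried much of the shared sign. Without tumor 102 the sign was negative for 17 of 32 replication-dependent and 6 of 8 variant genes, against 52.8% of all genes, and the medians were -0.055 and -0.345. The replication-dependent median was -1.16 without 116, -0.21 without 157, -0.67 without 158 and -0.70 with limma-voom, and the variant median was -0.97 without 116.

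**Figure D3:**
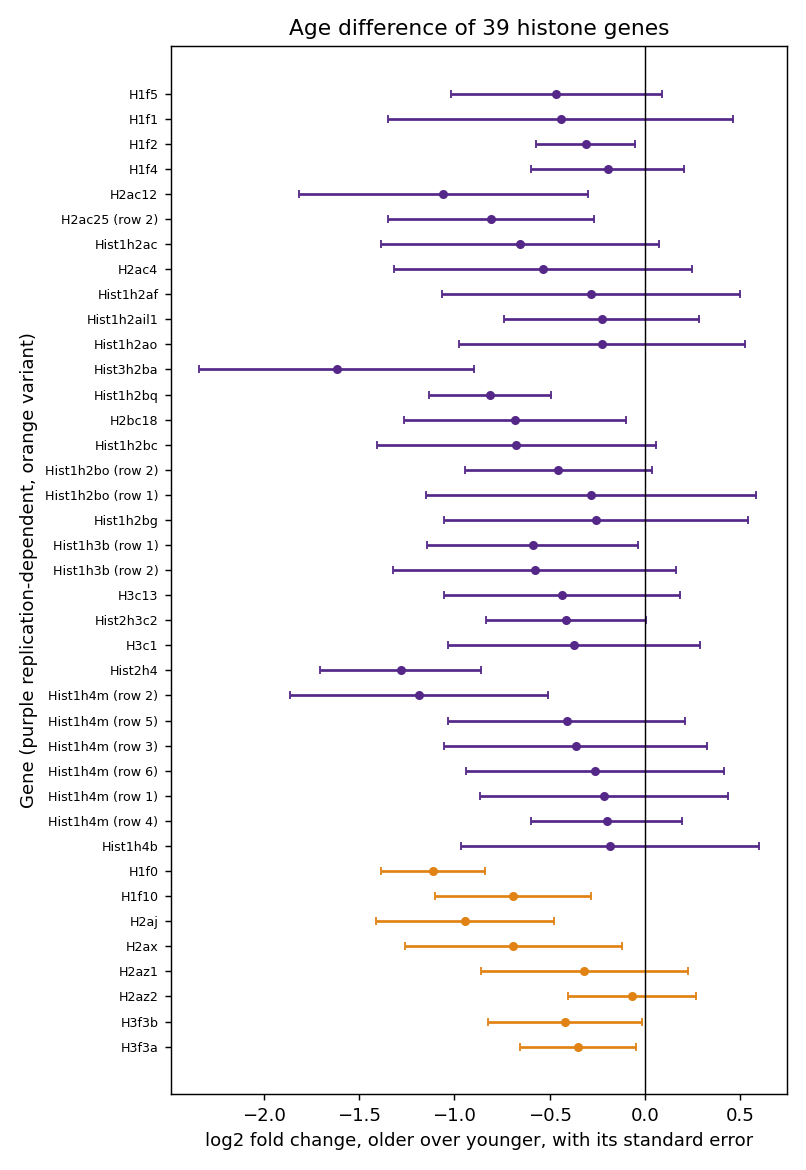
Log2 fold change of older over younger tumors for the 39 histone genes tested, with the standard error as bars, replication-dependent genes in purple and variant genes in orange. Every point lies left of 0, and H1f0, at -1.11, had the smallest p.

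H1f0 encodes H1.0, a linker histone that accumulates in cells that divide little or have differentiated. It measured 45.1 CPM in tumor 102, 79.0 in 107 and 58.9 in 116, against 128 in 157, 116 in 158 and 152 in 167. All older tumors were lower than all younger ones, and tumor 102 was the lowest. The fold change was -1.11 ± 0.27 (log2, SE), with an adjusted p of 0.314 in edgeR and 0.0294 in DESeq2, and it ranged from -0.94 to -1.34 when each tumor was left out in turn. H1f10, a linker variant distant in sequence from the others, measured 5.27, 10.3 and 9.10 CPM in tumors 102, 107 and 116 and 18.4, 10.6 and 11.2 CPM in 157, 158 and 167. The groups did not overlap, though 107 and 158 nearly met, and the fold change was -0.69 ± 0.41 (adjusted p = 0.758, edgeR), or -0.395 without 157.

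The 4 variant genes of H2A were each lowest in tumor 102, and only H2aj did not overlap between the groups. H2ax encodes H2A.X, which is phosphorylated beside DNA breaks, and measured 10.2, 34.2 and 58.9 CPM in tumors 102, 107 and 116 against 79.5, 44.2 and 44.2 CPM in 157, 158 and 167. Its groups overlapped because 116 exceeded 158 and 167, and its fold change of -0.69 ± 0.57 (adjusted p = 0.845, edgeR) was -0.26 without 102, -0.355 without 157 and -1.32 without 116. H2az1, 1 of the genes for H2A.Z, a variant found at promoters, measured 26.4, 49.8 and 142 CPM in older and 95.1, 89.5 and 88.4 CPM in younger tumors. The younger tumors were alike and the older ones spread on both sides of them. The fold change of -0.32 ± 0.54 (adjusted p = 0.938, edgeR) was 0.08 without tumor 102.

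H2az2, the second gene for H2A.Z, measured 15.2, 20.8 and 31.2 CPM in tumors 102, 107 and 116 and 25.3, 19.4 and 26.1 CPM in 157, 158 and 167. The groups overlapped throughout, and the fold change of -0.07 ± 0.34 (adjusted p = 0.98, edgeR) was 0.14 without 102 and 0.01 without 167. H2aj, which encodes H2A.J, a variant known to accumulate in senescent cells, measured 2.31, 3.51 and 6.39 CPM in older and 8.60, 7.22 and 8.08 CPM in younger tumors. The groups did not overlap at these low levels of 7 to 50 counts a tumor, with a fold change of -0.94 ± 0.47 (adjusted p = 0.668, edgeR), or -1.43 without 116.

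H3f3a and H3f3b both encode H3.3, which is placed into chromatin outside DNA replication. H3f3a measured 510, 438 and 438 CPM in tumors 102, 107 and 116 and 549, 431 and 789 CPM in 157, 158 and 167. It was the 1 variant gene that was not lowest in tumor 102, and only 167 stood out. H3f3b measured 58.0, 114 and 176 CPM in older and 146, 124 and 195 CPM in younger tumors. Its level in 102 was the lowest and the groups overlapped. The fold changes were -0.35 ± 0.31 for H3f3a (adjusted p = 0.858, edgeR) and -0.42 ± 0.41 for H3f3b (adjusted p = 0.875, edgeR). That of H3f3a was -0.09 without 167 and -0.53 without 158, and that of H3f3b -0.10 without 102, -0.22 without 167 and -0.85 without 116.

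Among the replication-dependent genes, the H1 family had 4 tested members. H1f2 encodes H1.2 and measured 186, 194 and 228 CPM in tumors 102, 107 and 116 and 223, 320 and 213 CPM in 157, 158 and 167. It was the steadiest replication-dependent gene, spanning 0.78 log2 units over the 6 tumors, where the 31 genes had a median span of 2.77, the variants 1.73 and all genes 1.22. H1f4 encodes H1.4 and measured 78.1, 152 and 216 CPM in older and 224, 125 and 162 CPM in younger tumors. Its highest values, in 116 and 157, came from different groups. The fold changes were -0.31 ± 0.26 for H1f2 (adjusted p = 0.846, edgeR) and -0.20 ± 0.40 for H1f4 (adjusted p = 0.946, edgeR), and that of H1f2 was -0.10 without 158 and that of H1f4 0.11 without 102 and 0.05 without 157, and -0.57 without 116.

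The part of the replication-dependent counts that came from H1f2 was larger in some tumors than in others. It supplied 24.1% of them in tumor 102, 11.4% in 107 and 7.67% in 116, against 7.74% in 157, 16.8% in 158 and 7.67% in 167. The 3 largest parts were those of the 3 tumors with the smallest share of replication-dependent counts. Because H1f2 itself varied little, its part rises wherever the other genes of the class fall. The order is therefore no separate observation on H1f2. The H3 genes together supplied 9.21% in tumor 102 and 12% to 18.5% in the other 5 tumors.

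The H2A family had 9 rows, of which 7 were tested. Hist1h2ao measured 8.56, 46.3 and 101 CPM in tumors 102, 107 and 116 and 65.7, 31.0 and 86.9 CPM in 157, 158 and 167. The second row named H2ac25 measured 8.23, 19.3 and 34.1 CPM in older and 43.9, 19.0 and 46.1 CPM in younger tumors. In both genes 102 was the lowest, 158 was the lowest of the younger tumors, and the groups overlapped. The fold changes were -0.22 ± 0.75 for Hist1h2ao (adjusted p = 0.972, edgeR), which was 0.28 without 102 and 0.11 without 167, and -0.81 ± 0.54 for H2ac25 (adjusted p = 0.79, edgeR), which was -0.435 without 102 and -1.39 without 116. Hist1h2af was the exception to the shared pattern, with 17 of its 81 counts in tumor 102, where its CPM was highest, and 2 in tumor 107, and it was picked out after its values had been seen.

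The H2B family held the widest age difference of the 5 families in summed CPM. It summed to 361 ± 194 CPM in older and 605 ± 94.6 CPM in younger tumors (SD, n = 3), a log2 ratio of -0.74 that was -0.41 without tumor 102. Hist1h2bq measured 125, 195 and 269 CPM in tumors 102, 107 and 116 and 316, 362 and 358 CPM in 157, 158 and 167. All older tumors were lower than all younger ones, and unlike most of its class the gene was highest in 158. The fold change was -0.81 ± 0.32 (adjusted p = 0.531, edgeR).

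H2bc18, which shares the octamer with Hist1h2bq, measured 37.5, 117 and 202 CPM in older and 208, 106 and 258 CPM in younger tumors. Tumor 158 lay within the older range, so the groups overlapped, and the fold change was -0.68 ± 0.58 (adjusted p = 0.853, edgeR). It was -0.26 without 102, -0.40 without 167 and -1.31 without 116. Hist3h2ba, an H2B gene outside the main cluster, had 2, 11 and 13 counts in tumors 102, 107 and 116 and 37, 11 and 41 counts in 157, 158 and 167. Its fold change of -1.62 ± 0.72 (adjusted p = 0.607, edgeR) rested on these few counts, and 158 was as low as the older tumors.

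In the H3 family, H3c13 measured 28.0, 118 and 208 CPM in tumors 102, 107 and 116 and 214, 117 and 150 CPM in 157, 158 and 167. The second row named Hist1h3b measured 7.57, 46.9 and 90.8 CPM in older and 112, 45.6 and 60.8 CPM in younger tumors. Both were lowest in 102 and nearly equal in 107 and 158. The fold changes were -0.43 ± 0.62 for H3c13 (adjusted p = 0.923, edgeR), which was 0.03 without tumor 102, and -0.58 ± 0.74 for Hist1h3b (adjusted p = 0.914, edgeR), which was -0.07 without 102, -0.13 without 157 and -1.41 without 116.

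In the H4 family, all copies encode the same or nearly the same protein, and 6 rows carried the name Hist1h4m. The fourth of these measured 66.9, 140 and 192 CPM in tumors 102, 107 and 116 and 191, 118 and 151 CPM in 157, 158 and 167. Hist1h4b measured 19.4, 101 and 261 CPM in older and 175, 75.9 and 184 CPM in younger tumors. Both were highest in 116, an older tumor, and lowest in 102. The fold changes were -0.20 ± 0.40 for the fourth Hist1h4m row (adjusted p = 0.945, edgeR), which was 0.12 without 102, and -0.18 ± 0.78 for Hist1h4b (adjusted p = 0.977, edgeR), which was 0.33 without 102 and 0.02 without 167.

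Hist2h4, an H4 gene outside the main cluster, measured 42.8, 46.1 and 97.6 CPM in tumors 102, 107 and 116 and 118, 113 and 224 CPM in 157, 158 and 167. All older tumors were lower than all younger ones, and 167 was the highest. The fold change was -1.28 ± 0.42 (adjusted p = 0.421, edgeR). The whole H4 family summed to a log2 ratio of -0.41, which was 0.01 without tumor 102. The ratios of H1, H2A and H3 were -0.32, -0.45 and -0.47, and -0.08, -0.02 and -0.01 without that tumor.

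Across tumors the replication-dependent genes moved largely as a block. Against each gene's median over the 6 tumors, their median deviation in log2 CPM was -1.83 in tumor 102, -0.275 in 107 and 0.52 in 116, and 0.66 in 157, -0.42 in 158 and 0.46 in 167. Tumor 102 was the lowest for 30 of 31 genes, and 116, 157 or 167 was the highest for 28. For the variants the same deviations were -1.15, -0.26 and 0.15 in older and 0.27, 0.005 and 0.21 in younger tumors, and 7 of 8 were lowest in 102. The 2 classes thus shared the low tumor 102. Tumor 158 was low for most replication-dependent genes and, by this median, in the middle for the variants. The variants' share of the counts in 158 nonetheless lay within the range of the older tumors.

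Within the younger group, 158 separated a few genes from the rest. The CPM in 158 over that in 157 had a median of 0.465 over the 31 replication-dependent genes. It was 0.717 or less in 27 of them and 0.957 or more in H1f2, Hist1h2bq, Hist2h4 and Hist1h2af, reaching 1.44 in H1f2, 1.15 in Hist1h2bq and 1.5 in Hist1h2af. These 4 genes were singled out after their values had been seen, and no test was made.

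**Figure D4:**
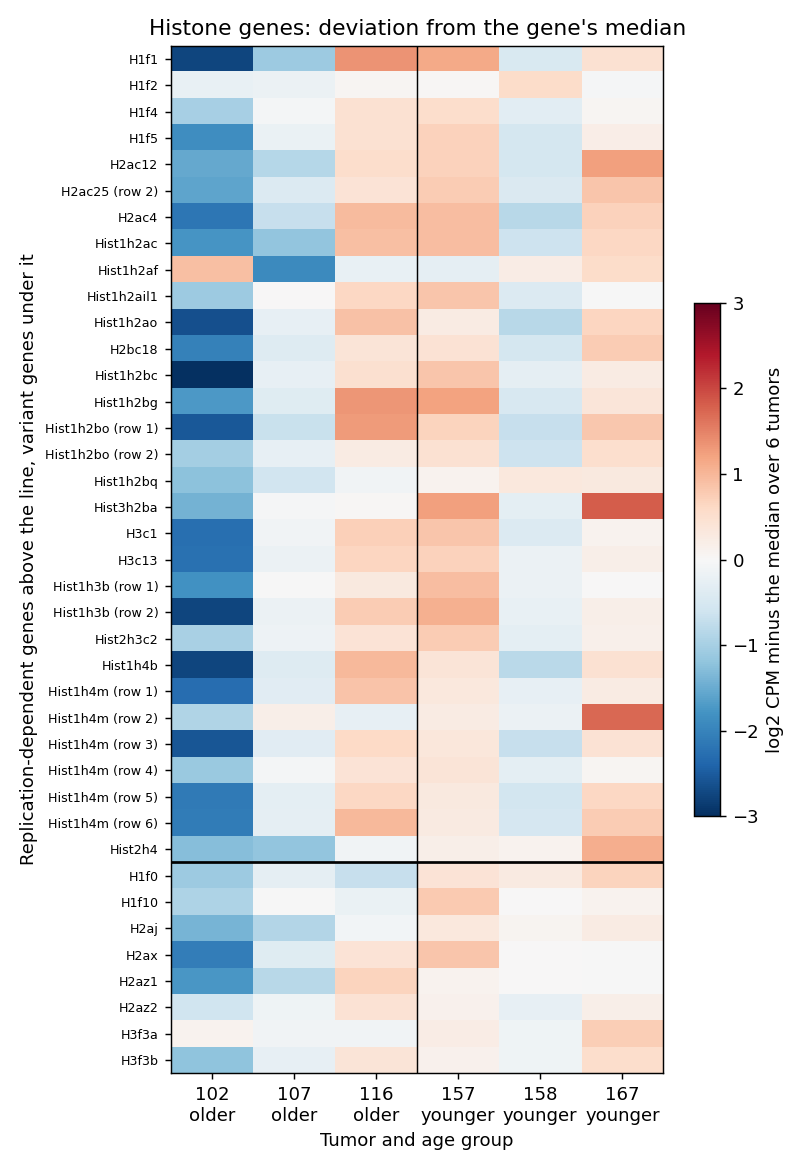
Log2 CPM of each of the 39 tested histone genes minus its median over the 6 tumors, with genes as rows and tumors as columns, red for above and blue for below the median. The column of tumor 102 is blue in nearly every row, H1f2 and H3f3a are pale throughout, and Hist1h2af runs against the other genes.

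Members that were not tested had few counts. H2ac25 had a first row with 38 counts in all, H2ac1 had 12 and H2bc1 had 4. The first 2 of these had the higher mean in older tumors, at 1.81 against 0.80 CPM and 0.62 against 0.23 CPM, so the shared sign did not extend to them. With every gene of at least 1 count tested, 31 of 34 replication-dependent genes had a negative sign. H1f6 had 17 counts in all, H1f7 and H1f8 had none in any tumor, and the 4 pseudogenes had 0 to 48. A total of 0 counts in a tumor allows a level of up to 0.516 to 0.988 CPM.

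The related genes of the histone pathway were tested in the same fit, and 0 of 63 passed an adjusted p of 0.05, with 1 at an unadjusted p under 0.05 in edgeR, lower in older tumors (3.27% of all genes), and none called by DESeq2 (0.811% of all genes were called lower). In 2 of the 63 every older tumor lay under every younger one (5.61% of all genes). Proteins that process the 3′ end of histone mRNA gave 5 of 11 genes with a lower and 6 with a higher mean in older tumors, with a median of 0.03. Slbp, whose product binds the stem-loop, measured 16.5, 34.2 and 50.9 CPM in tumors 102, 107 and 116 and 28.9, 29.1 and 29.5 CPM in 157, 158 and 167. The younger tumors were nearly equal while the older ones lay on both sides, with a fold change of 0.22 ± 0.40 (adjusted p = 0.938, edgeR) that was -0.20 without 116. In this list Cpsf3, the nuclease that makes the cut, had the smallest p, at a fold change of -0.44 ± 0.29 (adjusted p = 0.78, edgeR), or -0.25 without 102.

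Histone chaperones, which carry histones to DNA, had 15 of 20 genes with a negative and 5 with a positive sign and a median of -0.06. The smallest p was that of Rbbp7, a histone-binding subunit of several chromatin complexes, at -0.46 ± 0.38 (adjusted p = 0.846, edgeR), or -0.18 without 102 and -0.79 without 116. Other histone genes outside the name pattern had 4 of 4 negative signs and a median of -0.22. H2bu1, an H2B gene, measured 13.2, 24.6 and 29.2 CPM in older and 49.7, 26.1 and 57.0 CPM in younger tumors. Only 158 overlapped the older tumors, and the fold change was -0.98 ± 0.41 (adjusted p = 0.567, edgeR).

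Genes of S phase and proliferation had 15 of 25 negative and 10 positive signs and a median of -0.11. Their summed level was 565, 1590 and 2063 CPM in tumors 102, 107 and 116 and 2102, 1537 and 1366 CPM in 157, 158 and 167. Tumor 102 was lowest here as it was for the histone genes. Mki67, which encodes the proliferation marker Ki-67, measured 69.8, 352 and 449 CPM in older and 557, 375 and 321 CPM in younger tumors. It too was lowest in 102 and overlapped between groups, with a fold change of -0.52 ± 0.61 (adjusted p = 0.905, edgeR) that was -0.06 without 102, -0.26 without 157 and -0.985 without 116. Top2a, a topoisomerase of dividing cells, gave -0.37 ± 0.65 (adjusted p = 0.938, edgeR), which was 0.12 without 102. Pcna, the sliding clamp of the replication fork, gave 0.07 ± 0.53 (adjusted p = 0.986, edgeR), which was -0.20 with limma-voom and -0.50 without 116. Rrm2, a subunit of ribonucleotide reductase, had the smallest p of the list, at -0.81 ± 0.56 (adjusted p = 0.8, edgeR), which was -0.395 without 102 and -1.45 without 116.

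Relative to these S phase genes, the replication-dependent histone genes varied less over the 6 tumors than they did in CPM, by 1.9-fold against 3.86-fold between the lowest and the highest tumor. This rested on tumor 102, whose histone sum was 772 CPM, where the other tumors lay at 1702 to 2979 CPM. The ratio of the summed CPM of the 2 lists was 1.37 in tumor 102, 1.07 in 107 and 1.44 in 116, and 1.37 in 157, 1.24 in 158 and 2.04 in 167. Tumor 102, the lowest on both sums, had the same ratio as 157, and 167 had the highest. The lowest ratio was that of 107, so without tumor 102 the ratio did not vary less than the histone sum. Nor did it within the younger group, where the ratio spanned 1.64-fold and the histone sum 1.51-fold. How far the histone values follow the share of cells in S phase was not tested.

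A further RNA without a poly(A) tail was measured beside the histone genes, since rRNA depletion keeps it and oligo-dT selection does not. Rpph1, the RNA subunit of ribonuclease P, measured 4090, 4679 and 8668 CPM in tumors 102, 107 and 116 and 5346, 3956 and 9030 CPM in 157, 158 and 167. Tumors 102, 107 and 158 had the 3 lowest values of both Rpph1 and the summed replication-dependent genes. The same tumors were lowest for the summed variant histone genes, at 673, 749 and 842 CPM. They were also lowest for the summed histone chaperones, at 1216, 1497 and 1418 CPM, but not for the S phase genes. Sharing these low tumors was therefore not particular to RNAs without a poly(A) tail. The fold change of Rpph1 was -0.07 ± 0.51 (adjusted p = 0.986, edgeR), and it was 0.13 without 102, 0.07 without 107 and 0.32 without 167. Rn7sl1, the RNA of the signal recognition particle, did not share the order of Rpph1 and was highest in 102. It measured 10.5, 8.33 and 10.3 CPM in tumors 102, 107 and 116. In 157, 158 and 167 it measured 5.68, 8.81 and 4.99 CPM. These levels rested on only 21 to 53 counts a tumor, and 102 and 116 were nearly equal. The fold change of Rn7sl1 was 0.58 ± 0.39 (adjusted p = 0.79, edgeR). The part of library recovery in the histone values was not tested.

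**Figure D5:**
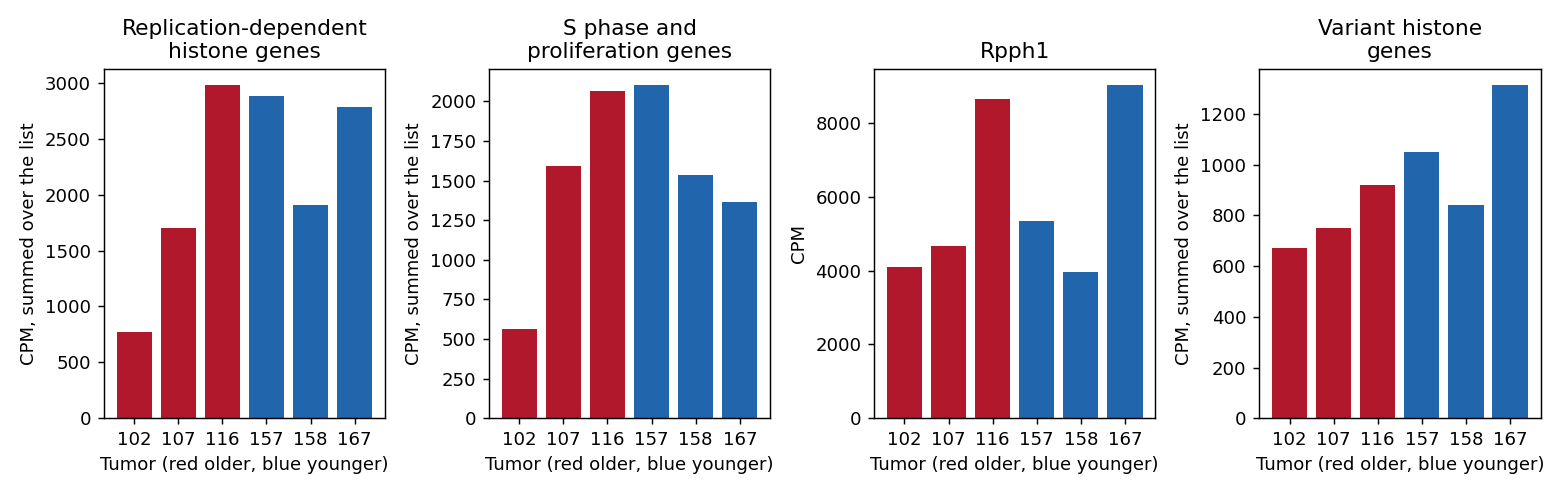
Summed CPM of replication-dependent histone genes, of S phase and proliferation genes and of variant histone genes, and CPM of Rpph1, in each tumor (bars, red older and blue younger). Tumor 102 is lowest in 3 of the 4 panels, whereas 167, with 9030 CPM, is highest for Rpph1.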

How the data were processed

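Bulk RNA from 6 tumors was sequenced after rRNA depletion, per the protocol, although the labels name polyA RNA, and the labels give reads of 100 bases where the protocol gives 150. The authors deposited read counts per gene, and their processing notes name HTSeq 0.13.5, DESeq2 and the build mRatBN7.2. The annotation, strand setting and handling of reads that match several genes are not given in the sources used here. Counts of near-identical histone copies are therefore uncertain, since shared reads could be split or dropped. Symbols on several rows were kept apart and numbered in the order of the table. Of the 30562 rows, 4367 had no name (2.17% to 3.64% of a tumor's counts). They were taken as genes without a symbol and stayed in the library totals and the fit, and leaving them out was an alternative.

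Counts were tested with edgeR 4.0.16 in R 4.3.3 (TMM, filterByExpr by age group, quasi-likelihood test, Benjamini-Hochberg over 14060 genes, threshold 0.05). CPM divides counts by the scaled library total, and deviations and spans used log2 CPM with a prior count of 2. Alternatives were DESeq2 1.42.0, limma 3.58.1 voom, other scalings and filters, leaving out the 10 most abundant genes or each tumor in turn, and, added after the data were seen, summing rows of one symbol and leaving out the unnamed rows. Pairs of tumors in a group differed far beyond sampling noise (chi-square per degree of freedom 35 to 110). On how the samples of a group relate, the labels say only that they are separate tumors. The deposited counts add a suffix to each tumor number. It is FF for tumor 102 and begins with L or R and a digit for every other tumor. The meaning of these suffixes is not given in the sources used here. Whether tumor 102 differed from the others in site or handling therefore cannot be told.

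Members and lists were chosen with earlier results of these data known. Genes named with values were every tested variant, of the replication-dependent genes the 2 with the most counts in each family and the 3 of lowest p (all had a negative sign), and Mki67, Pcna, Top2a, Slbp, Rpph1 and the gene with the smallest p of each related list. Rmrp and Rn7sk, also in the rule, had no row by that name. Promoter sequences and motifs came from RefSeq (GRCr8), a different build from that of the counts.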

Additional observations from a re-analysis of the deposited data

How the results depend on the processing

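No histone gene passed the adjusted threshold under any alternative except with the DESeq2 Wald test, which called 1, H1f0 (log2 fold change -1.115, adjusted p = 0.0294, against 0.251 to 0.721 under the edgeR and limma-voom alternatives). Unadjusted calls numbered 1 to 9 when each tumor was left out, with the 9 found without 116, all lower in older tumors, as 3.91% of all genes were in that fit. The 2 calls without 102 went opposite ways. They were 1 variant gene lower in older tumors (2.73% of all genes) and 1 replication-dependent gene higher (4.46% of all genes). No related gene passed under any setting. When each tumor was left out, the median fold change ranged from -1.158 to -0.055 for replication-dependent and from -0.972 to -0.345 for variant genes, and the difference in share from -0.149 to -0.0149 and from -0.0532 to -0.0165 points. Summing the rows of one symbol gave a replication-dependent median of -0.437. Without the unnamed rows no member's fold change moved by more than 0.0103. For 11 of the 30 genes given with values the sign turned. When each tumor was left out, the lowest value came without 116 and ran to the highest, which came without 102 except for Rpph1. The ranges were -1.254 to 0.078 for H2az1, -0.388 to 0.144 for H2az2, -0.57 to 0.113 for H1f4, -1.146 to 0.278 for Hist1h2ao, -1.126 to 0.032 for H3c13, -0.568 to 0.12 for the fourth Hist1h4m row and -1.261 to 0.33 for Hist1h4b. Among related genes they were -0.499 to 0.505 for Pcna, -0.752 to 0.123 for Top2a, -0.196 to 0.547 for Slbp and -0.481 to 0.321 for Rpph1, the last without 167. Pcna was -0.198 with limma-voom. The cause was not tested. With 3 tumors a group and members down to 81 counts in all, differences within these standard errors were not detectable. Differences several times their standard error could also go uncalled. That of H1f0, at -1.11 ± 0.27, had an adjusted p of 0.314 in edgeR. No paired analysis was possible because no label links a tumor of one age group with a tumor of the other.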
